A study of Mus musculus with 28 samples.

Results

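The genes described here are 10 activity-induced synaptic and signalling genes outside the Nr4a, Egr, Fos and Jun families (*Arc*, *Homer1*, *Nptx2*, *Npas4*, *Per1*, *Ier2*, *Sik1*, *Sik2*, *Dusp1* and *Dusp6*). They were chosen by name for their induction by neuronal activity, from the 55450 genes of the GENCODE vM21 annotation, of which 21951 are protein-coding. Their chromatin was read in lists of H3K4me3 peaks and H3K27me3 islands made by ICuRuS, which joins the isolation of tagged nuclei from 1 cell type (INTACT) with CUT&RUN, an antibody-directed cleavage of chromatin. The nuclei came from the bilateral striatum of single male or female mice of about 8 weeks on the C57BL/6J strain, which carried the R26-CAG-LSL-Sun1-sfGFP allele together with A2a-cre or Drd1-cre. Cre thus decided which medium spiny neurons (MSNs) carried the GFP-tagged nuclear envelope protein, A2a or D1, and the labels name no drug or stimulus for the mice. Elsewhere the study gives a wider range of ages for the mice and proposes age as a possible source of differences in signal between A2a and D1. Of 28 samples in the series, 8 entered the lists, as 2 replicates for each cell type and antibody (Abcam for H3K4me3, Active Motif for H3K27me3). The D1 H3K27me3 samples carry labels at odds with each other, A2a in the source name and D1 in the title and cell type, and their list was taken as D1 here.

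Activity-induced genes are transcribed within minutes to hours after synaptic input raises calcium and cAMP in the nucleus. Their promoters are recognised by factors that are already present in the resting neuron, among them CREB at cAMP response elements (CRE). H3K4me3 marks the start regions of active and readily activated genes, whereas H3K27me3 is laid down by Polycomb complexes over silent developmental and cell type genes. In the striatum, cAMP is raised by dopamine D1 receptors in D1 MSNs and by adenosine A2a receptors in A2a MSNs, and both cell types can induce genes of this kind.

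RefSeq promoters (GRCm38.p6, 250 bases before to 50 bases after a start) were found for 6 of the 10 genes, in 8 windows. *Arc*, *Sik1*, *Ier2* and *Nptx2* had no entry. The stretches shown are those before a start that no annotated exon overlaps, and they were picked because a searched motif lies in them. They are the stretches of *Dusp1* (chr17:26508520-26508722, minus strand), *Homer1* (chr13:93303507-93303756, plus strand) and *Per1* before its starts near 3731 and at 4935 bp from the 5′ end (chr11:69098699-69098947 and chr11:69099902-69100151, plus strand). Capitals mark the full CRE TGACGTCA, its core TGACG and the E-box CACGTG, which clock and other basic helix-loop-helix factors recognise.
*Dusp1*: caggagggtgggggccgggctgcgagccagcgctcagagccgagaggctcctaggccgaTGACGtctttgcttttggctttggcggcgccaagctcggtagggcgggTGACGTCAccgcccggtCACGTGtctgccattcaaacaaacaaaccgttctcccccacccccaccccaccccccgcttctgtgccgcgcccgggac
*Homer1*: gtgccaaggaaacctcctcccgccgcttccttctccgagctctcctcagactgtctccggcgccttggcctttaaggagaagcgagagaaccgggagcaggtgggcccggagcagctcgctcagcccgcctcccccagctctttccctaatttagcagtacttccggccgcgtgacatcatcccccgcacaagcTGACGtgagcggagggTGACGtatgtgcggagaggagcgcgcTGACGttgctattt
*Per1* start near 3731 bp: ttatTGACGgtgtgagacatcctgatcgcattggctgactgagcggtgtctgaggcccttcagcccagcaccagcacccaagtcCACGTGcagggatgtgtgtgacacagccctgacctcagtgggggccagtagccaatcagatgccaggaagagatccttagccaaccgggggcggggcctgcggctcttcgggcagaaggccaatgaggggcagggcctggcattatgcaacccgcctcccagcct
*Per1* start at 4935 bp: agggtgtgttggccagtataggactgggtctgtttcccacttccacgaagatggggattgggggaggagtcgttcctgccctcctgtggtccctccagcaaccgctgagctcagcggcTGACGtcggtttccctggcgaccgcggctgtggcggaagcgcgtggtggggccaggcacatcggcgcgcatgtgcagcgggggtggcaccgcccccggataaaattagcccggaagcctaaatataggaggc

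Motifs were searched on both strands in the whole windows, and a full CRE always holds the core on each strand. The full CRE was found in *Dusp1* alone among the 8 windows, with its first base 143 bases before the start, against 1.79% of all 32851 RefSeq promoters. In *Dusp1* an E-box followed at 126 bases before the start and a further core lay at 191 bases. *Homer1* held the core at 3 places in its first window, 56, 40 and 14 bases before the start, and 1.03% of all promoters held it at 3 or more places. The core was present in 6 of the 8 windows, from 5 genes, against 20.8% of all promoters. It lay 246 and 132 bases before the *Per1* starts near 3731 and at 4935 bp, and an E-box, present in 7.15% of all promoters, lay 166 bases before the former. *Sik2* held the core at 2 places, 1 base before and 12 bases after the start, and *Npas4* held it at 179 and 169 bases before its RefSeq start, 345 bp into the gene. The TATA box TATAAA (13.6% of all promoters), the AP-1 site TGAGTCA (5.20%) and the CArG box (1.63%) were found in 0 of the 8 windows. The *Sik2*, *Dusp1* and *Dusp6* windows and that of *Per1* at 4935 bp lay inside H3K4me3 peaks over all 300 bases in both lists. Their CpG content, as observed over expected, was 0.914, 0.921, 0.802 and 0.675, and over the 8 windows it ran from 0.470 to 0.921, against a median of 0.384 over all promoters. The full CRE, its core and the E-box each hold a CpG, and the windows were not compared with promoters of like CpG content.

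All 10 genes had an H3K4me3 peak at a transcript start in A2a MSNs and in D1 MSNs. A start was counted as marked when a peak overlapped the window from 2 kb upstream to 1 kb downstream of any annotated transcript start. By the same count, 62.0% of protein-coding genes had a peak in A2a and 59.4% in D1. An H3K27me3 island lay at a start of 2 of the 10 genes, *Ier2* and *Nptx2*, in both lists, whereas the other 8 had none at a start or in the gene body. Among protein-coding genes, 24.2% had an A2a island and 17.4% a D1 island at a start, and 27.7% and 21.0% had an island in the gene body. Of the protein-coding genes with an H3K4me3 peak at a start, 19.4% also had an island in A2a and 12.3% in D1, so the share of the 10 genes with an island was near the background and rested on 2 genes. The lists pool the 2 replicates of each group, so no value has an error between mice and no difference between A2a and D1 was tested. Intervals on reads cover counting error only.

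**Figure D1:**
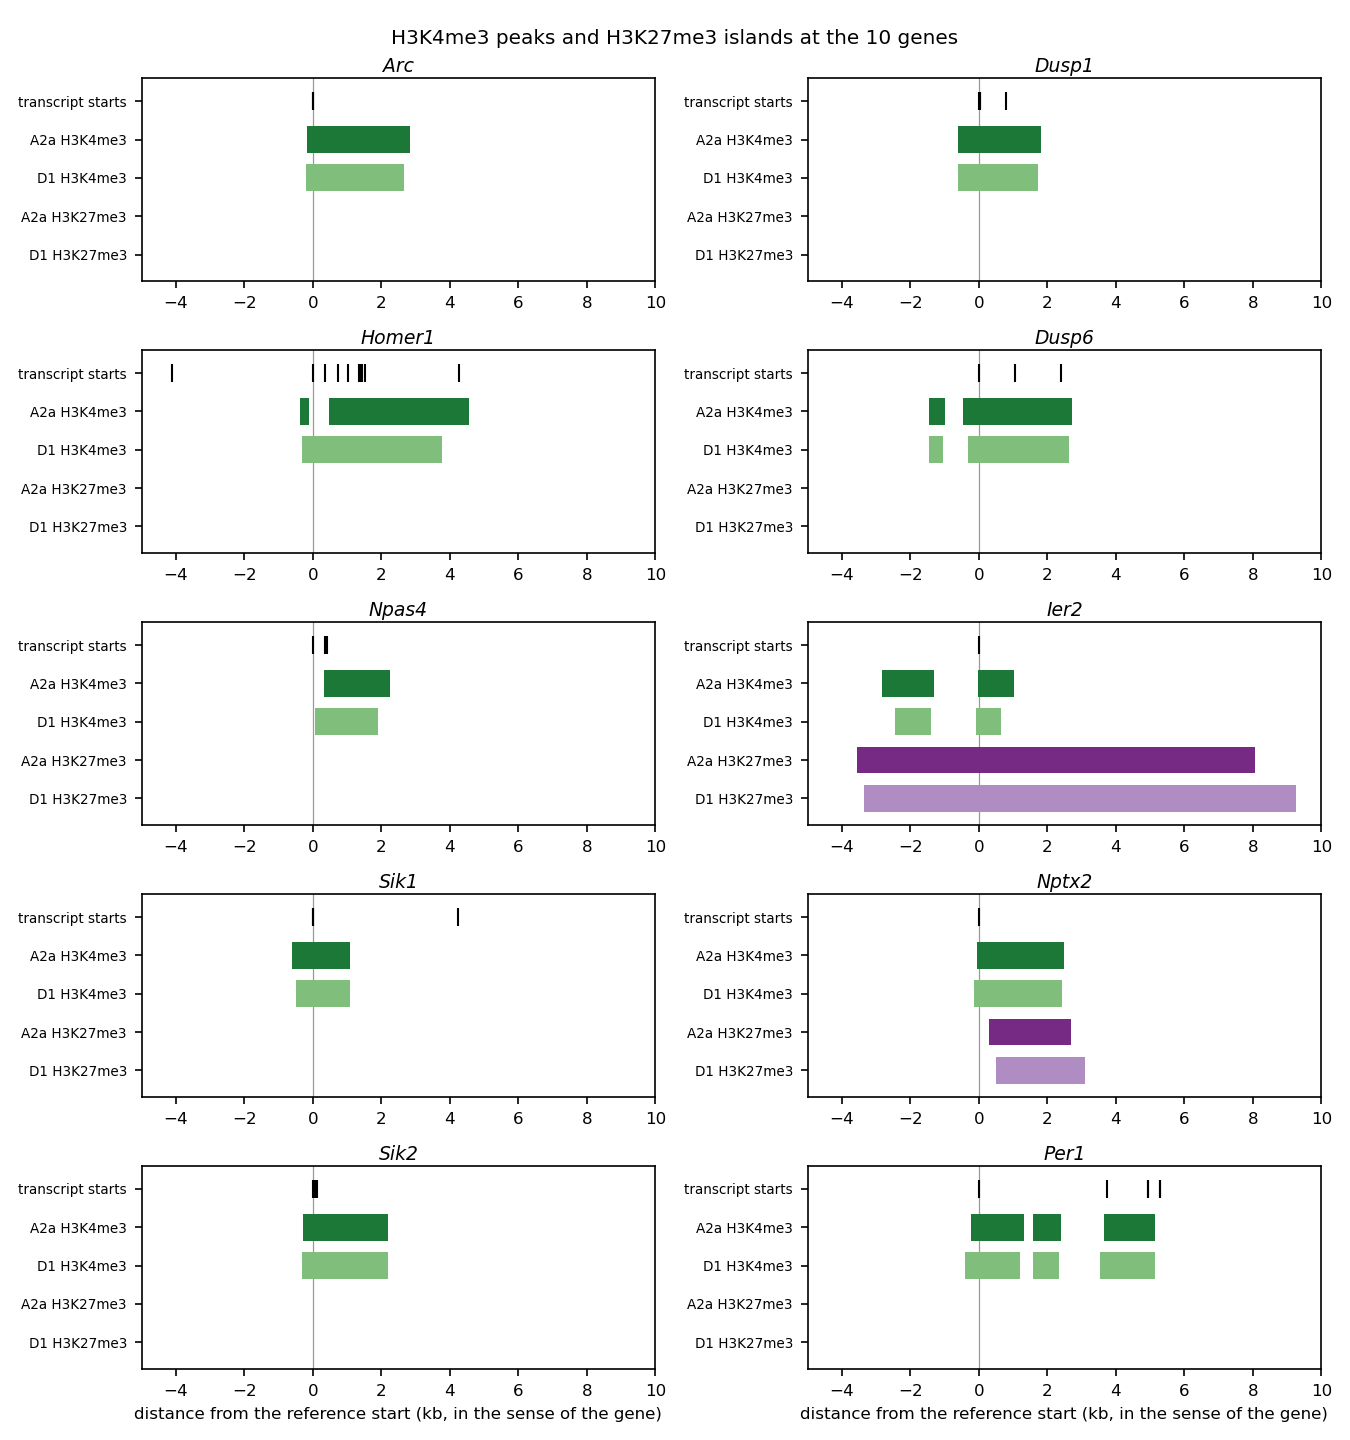
H3K4me3 peaks (green) and H3K27me3 islands (purple) of the A2a and D1 lists at each of the 10 genes, by distance in kb from the reference start, with black ticks for annotated transcript starts. Peaks are present at all 10 genes, islands at *Ier2* and *Nptx2*, and the starts of *Dusp1* at its 5′ end lie 53.6 kb to the left of the range drawn.

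Each peak has a fold enrichment over the local background and a −log10 q-value, and each island a count of reads. Since the lists were not normalized to each other, each value was ranked in its own list, as the percentile of the list by −log10 q or by reads. Distances are given in the sense of the gene from a reference start, the first protein-coding start whose window holds the gene's strongest A2a peak. By this ranking, the strongest peak of the 10 genes had a median percentile of 63.1 in A2a and 59.5 in D1. The strongest peaks of all protein-coding genes with a peak had medians of 72.2 and 71.0. Fold enrichment was below the median over genes at 10 of the 10 genes in each list (medians 5.01 in A2a and 4.65 in D1, against 7.64 and 7.51). The peaks were also long, with medians of 2458 bp in A2a and 2416 bp in D1, against 1625 bp and 1520 bp over genes. Fold enrichment is a ratio to the local background, and whether it depends on the length of a peak was not tested. The strongest peak was longer than the median over genes at 8 of the 10 genes in A2a and 9 in D1. Ranked among the strongest peaks of protein-coding genes, the peak stood higher by length than by −log10 q and by fold enrichment at 10 of the 10 genes in A2a and at 9 in D1, all but *Ier2*. This was the case at 35.0% of protein-coding genes with a peak in A2a and at 35.3% in D1. Among the 10 genes, *Sik1*, *Per1* and *Ier2* had the shortest of the strongest peaks in A2a. Long peaks were not particular to the 10 genes. In A2a the strongest peaks of 43 further activity-induced genes, read below, ran from 879 to 3471 bp. Those of the Nr4a, Egr, Fos and Jun families ran from 812 to 3317 bp. In A2a, most but not all of the 43 genes likewise had a strongest peak that stood higher by length than by both other measures.

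**Figure D2:**
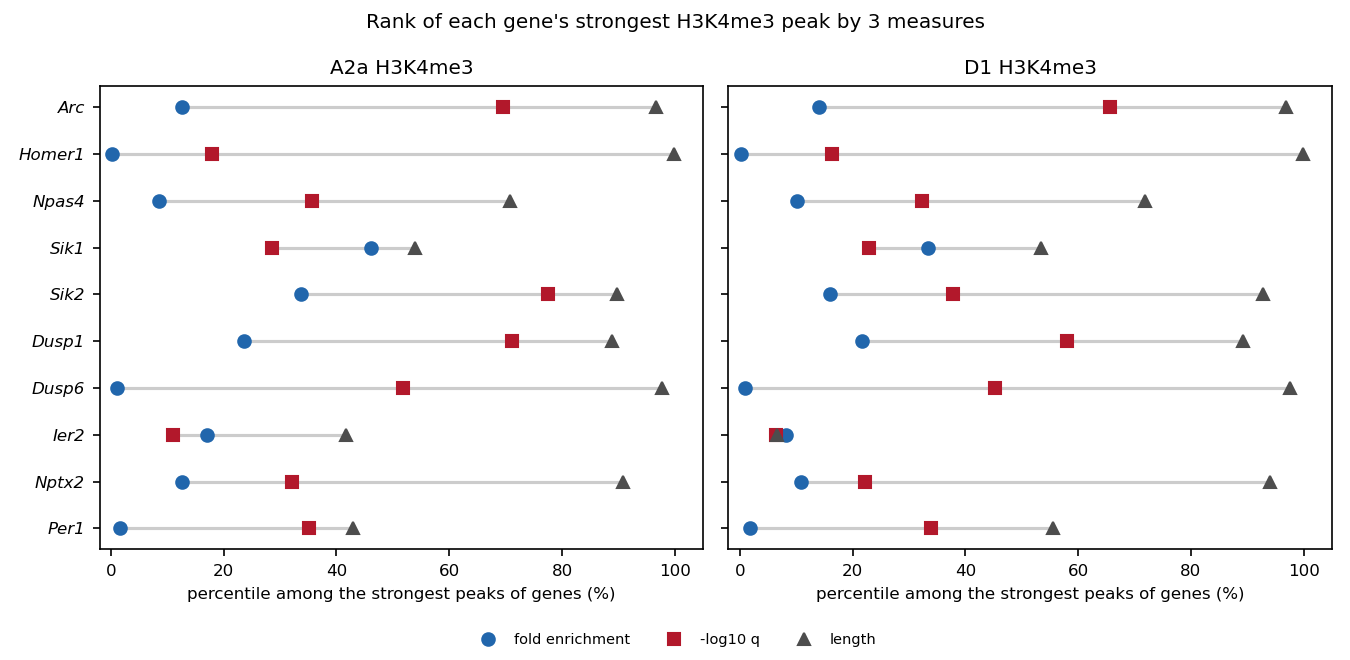
Percentile of each gene's strongest H3K4me3 peak by fold enrichment, −log10 q and length, each among the strongest peaks of protein-coding genes, for A2a (left) and D1 (right). *Homer1* spans the widest range, from 0.257 by fold enrichment to 99.8 by length in A2a, and at *Ier2* in D1 the 3 ranks lie between 6.44 and 8.19.

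Among the genes whose products act at the synapse, *Arc* encodes a cytoskeleton-associated protein that drives the endocytosis of AMPA receptors. *Arc* (ENSMUSG00000022602.14, chr15:74669083-74672570, minus strand) had a single peak in each list. The A2a peak ran from −174 to 2834 bp over 3009 bp, with a fold enrichment of 5.01, a −log10 q of 156 and percentile 83.5. The D1 peak ran from −205 to 2655 bp over 2861 bp, with a fold enrichment of 4.99, a −log10 q of 104 and percentile 80.8. The peaks shared 2830 bp and covered most of a gene of 3.49 kb. Their summits lay 738 bp apart, at 848 bp in a coding exon in A2a and at 110 bp in the non-coding part of an exon in D1.

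*Homer1* encodes a scaffold of group I metabotropic glutamate receptors, and a short form made upon activity uncouples it. The gene (ENSMUSG00000007617.18, chr13:93299635-93405129, plus strand) has 12 transcripts from 10 starts. Its 5′ end, the start of a non-coding transcript, had no peak in its window in either list, and the 9 coding starts from 0 to 4277 bp downstream of the reference start all did. In A2a a peak of 265 bp (fold enrichment 1.67, −log10 q of 11.5) ended 118 bp before the reference start, and a peak of 4079 bp ran from 487 to 4565 bp (2.51 and 58.2, percentile 49.4). In D1 a single peak of 4094 bp ran from −322 to 3771 bp (2.49 and 38.2, percentile 44.7). The first 2 coding starts and the 3 CRE cores just before them thus lay inside a peak in D1 and in the gap between peaks in A2a, whereas the last coding start at 4277 bp lay inside the A2a peak and beyond the end of the D1 peak. By length the strongest peak exceeded or equalled 99.8% of those of genes in A2a and 99.9% in D1. By fold enrichment it ranked among the same peaks at percentiles 0.257 and 0.230, and in its whole list at 2.23 and 2.09. An intronic peak of 649 bp in A2a (fold enrichment 4.24) and of 333 bp in D1 (2.88) lay 16.2 and 16.1 kb downstream, outside every start window.

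*Nptx2* encodes a secreted pentraxin that clusters AMPA receptors at excitatory synapses. At *Nptx2* (ENSMUSG00000059991.7, chr5:144545902-144557478, plus strand), the A2a peak ran from −45 to 2488 bp (2534 bp, fold enrichment 5.01, −log10 q of 97.2, percentile 61.0). The D1 peak ran from −149 to 2435 bp (2585 bp, 4.69 and 50.7, percentile 51.0), and the summits lay 26 bp apart in an intron. Both lists also held an island over the same stretch of the gene. The A2a island ran from 299 to 2698 bp and held 137 reads (exact 95% Poisson interval 115 to 162). The D1 island ran from 499 to 3098 bp and held 82 reads (65.2 to 102). These were weak islands, at percentiles 20.3 of the A2a list and 31.3 of the D1 list by reads. They held 57.1 and 31.5 reads per kb, against medians of 62.5 and 37.2 per island and 73.4 and 42.8 over the whole length of all islands. They covered 2190 of the 2534 bp of the A2a peak and 1937 of the 2585 bp of the D1 peak and left the start itself uncovered. When only as many of the strongest A2a islands were kept as the D1 list holds, the A2a island at *Nptx2* was lost.

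Among the genes for transcriptional regulators, *Npas4* encodes a basic helix-loop-helix PAS factor that is induced by calcium entry in neurons. The *Npas4* peaks (ENSMUSG00000045903.9, chr19:4984355-4990316, minus strand) began downstream of the annotated 5′ end. The A2a peak ran from 323 to 2259 bp (1937 bp, fold enrichment 4.53, −log10 q of 104, percentile 63.2). The D1 peak ran from 54 to 1894 bp (1841 bp, 4.61 and 65.4, percentile 58.8). The coding start was thus outside the peak in both lists, and the starts of the other 2 transcripts, at 345 and 412 bp, were inside it in both. Of the 300 bases of the RefSeq window, 72 lay in the A2a peak and 300 in the D1 peak.

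*Per1*, a repressor of the circadian clock that is also induced through CREB, had 3 peaks in each list (ENSMUSG00000020893.17, chr11:69095217-69109960, plus strand). The first covered the 5′ end, from −224 to 1309 bp in A2a (fold enrichment 3.34, −log10 q of 103, percentile 62.9) and from −396 to 1194 bp in D1 (3.37 and 67.5, percentile 60.1). The second began at 1586 bp in both lists, covered no start and was 805 bp long in A2a (2.30 and 37.5) and 763 bp long in D1 (2.26 and 23.7). The third, from 3644 to 5131 bp in A2a (2.42 and 42.6) and from 3543 to 5130 bp in D1 (2.42 and 29.0), covered the coding starts at 3731, 4935 and 4941 bp. The fold enrichments of the strongest *Per1* peak ranked at percentiles 6.74 in A2a and 8.02 in D1.

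*Ier2* is a short immediate early gene for a nuclear protein (ENSMUSG00000053560.4, chr8:84661331-84662852, minus strand) and had the lowest percentile of the 10 genes by −log10 q in both lists, though not by fold enrichment. In A2a a peak of 1050 bp from −21 to 1028 bp (fold enrichment 3.65, −log10 q of 13.5, percentile 24.7) lay over the start, and a peak of 1516 bp from −2817 to −1302 bp (5.40 and 31.2, percentile 39.5) lay upstream. In D1 the peak over the start was 713 bp long (4.35 and 13.5, percentile 27.1) and the upstream peak 1071 bp long (4.10 and 11.7, percentile 24.3). The stronger peak was thus the upstream one in A2a and the one over the start in D1. The upstream peak also covered the start of *Gm26664*, a long intergenic RNA on the opposite strand whose 5′ end lies −2276 bp from that of *Ier2*, so that its reads cannot be given to *Ier2* alone. All 4 peaks lay wholly inside an H3K27me3 island. The A2a island was 11.6 kb long, from −3548 to 8051 bp, with 1257 reads (exact 95% Poisson interval 1188 to 1328), and the D1 island was 12.6 kb long, from −3348 to 9251 bp, with 670 reads (620 to 723). They ranked at percentiles 96.4 and 97.4 by reads, held 108 and 53.2 reads per kb, and shared 11.4 kb. Per kb of island, the A2a reads were 2.04 times the D1 reads at *Ier2* and 1.81 times at *Nptx2*, and 1.72 times over all islands of the lists, which were called separately and not normalized to each other.

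The salt-inducible kinases *Sik1* and *Sik2* phosphorylate CRTC coactivators of CREB and so keep them out of the nucleus, and *Sik1* is itself a CREB target. The *Sik1* peak (ENSMUSG00000024042.7, chr17:31844250-31855804, minus strand) was 1676 bp long in A2a (fold enrichment 7.43, −log10 q of 89.6, percentile 58.5) and 1564 bp long in D1 (6.51 and 51.9, percentile 51.6). The D1 peak lay wholly within the A2a peak. A further *Sik1* start at 4229 bp, of a non-coding transcript, had no peak in its window in either list.

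*Sik2* differed most in rank between the lists (ENSMUSG00000037112.16, chr9:50892801-51009073, minus strand). Its peak over the start had nearly the same extent in both, from −281 to 2196 bp in A2a and from −319 to 2191 bp in D1, with summits 35 bp apart and 2473 bp shared. The fold enrichment was 6.66 in A2a and 5.18 in D1, and the −log10 q was 171 and 72.3. This placed *Sik2* at percentile 88.0 in A2a and 62.8 in D1, a gap of 25.2 points, and 98.3% of protein-coding genes with a peak in both lists had a gap (A2a minus D1) as low or lower. The study names *Sik2* among genes whose marks did not differ between the cell types, in signal normalized between the samples. The ranks here come from lists that were not normalized to each other, and the gap was not tested. The intronic peaks 42.1 kb downstream in A2a (934 bp, fold enrichment 5.67) and 42.2 kb downstream in D1 (653 bp, 4.65) overlapped each other, and no start window held them.

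*Dusp1* and *Dusp6* encode phosphatases that switch off MAP kinases, the former in the nucleus and the latter acting on ERK in the cytosol. *Dusp1* (ENSMUSG00000024190.7, chr17:26505590-26562128, minus strand) has coding starts 53.6 kb apart, and both regions had a peak. Over the reference start, the peak with the full CRE was 2438 bp long in A2a (fold enrichment 5.94, −log10 q of 159, percentile 84.4) and 2320 bp long in D1 (5.65 and 94.9, percentile 76.0). At the annotated 5′ end, the peak was 1842 bp long in A2a (9.0 and 145, percentile 79.4) and 1859 bp long in D1 (6.97 and 55.9, percentile 53.6). This distal peak also covered a start of *Ergic1*, a gene for a trafficking protein, and the reads of both genes cannot be told apart there. A small intronic peak in each list (423 bp in A2a and 563 bp in D1, fold enrichment 4.69 and 3.94) lay between them.

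At *Dusp6* (ENSMUSG00000019960.8, chr10:99263231-99267489, plus strand), the main peak ran from −453 to 2719 bp in A2a (3173 bp, fold enrichment 3.17, −log10 q of 130, percentile 73.3). In D1 it ran from −328 to 2626 bp (2955 bp, 3.08 and 80.6, percentile 67.7). The summits lay 24 bp apart, at 161 bp in A2a and at 185 bp in D1. An upstream peak began at −1440 bp in both lists and was 450 bp long in A2a (fold enrichment 1.54) and 396 bp long in D1 (1.84). The main peak ranked at percentiles 97.7 in A2a and 97.5 in D1 by length among the genes and at 5.18 and 4.55 by fold enrichment in its list.

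Between the lists, the H3K4me3 peaks lay at the same places. All 19 A2a peaks at the starts or bodies of the 10 genes overlapped a D1 peak, and all 18 D1 peaks overlapped an A2a peak. Of all peaks, 82.3% of those in A2a overlapped a D1 peak and 94.7% of those in D1 an A2a peak. The islands at *Ier2* and *Nptx2* overlapped as well, as did 52.3% of all A2a islands and 78.7% of all D1 islands. The strongest peak had a higher percentile in A2a than in D1 at 10 of the 10 genes, and the same held for 65.7% of the 13010 protein-coding genes with a peak in both lists. At *Ier2* this sets 2 different peaks against each other, the upstream one in A2a and the one over the start in D1. Over the *Ier2* start itself the order was the reverse, with percentile 24.7 in A2a and 27.1 in D1 and fold enrichment 3.65 and 4.35. The median gap (A2a minus D1) was 6.24 points at the 10 genes and 3.96 points over all such genes, of which the middle 90% ran from −15.1 to 20.2 points. Apart from *Sik2*, all of the 10 genes lay within this range by their strongest peak, from 2.72 points at *Arc* to 12.5 at *Ier2*. Fold enrichment was higher in A2a at 8 of the 10 genes and lower at *Npas4* and *Per1*, with a median ratio of A2a to D1 of 1.04, against 1.03 over all such genes.

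**Figure D3:**
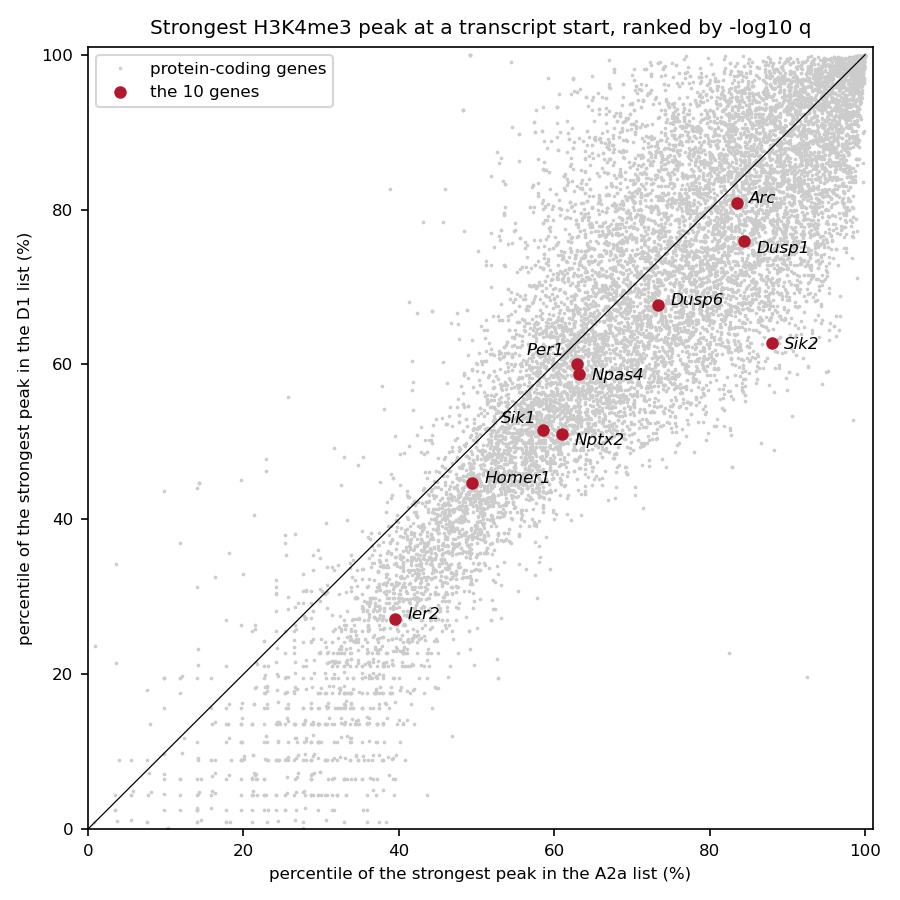
Percentile of the strongest H3K4me3 peak at a transcript start in the A2a list (horizontal) and the D1 list (vertical), for protein-coding genes with a peak in both lists (grey) and the 10 genes (red), with the line of equal percentile. All 10 genes lie below the line, and *Sik2*, at 88.0 and 62.8, lies farthest from it. The values of *Ier2* come from a different peak in each list.

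The 8 genes without an island were also placed by their distance from the nearest one. The nearest A2a island lay 14.2 kb from *Sik1*, 30.9 kb from *Dusp6*, 31.2 kb from *Homer1*, 43.6 kb from *Per1* and 65.3 kb from *Sik2*. It lay 76.9 kb from *Npas4*, 90.0 kb from *Arc* and 250 kb from *Dusp1*. In D1 the distances ran from 25.8 kb at *Sik1* to 272 kb at *Dusp1*, and they were greater than in A2a at 6 of these 8 genes and smaller at *Arc* (29.9 kb) and *Sik2* (64.5 kb). Over the protein-coding genes that likewise had no island in the gene body, the median distance was 43.7 kb in A2a and 71.5 kb in D1, and 4 of the 8 genes lay nearer than this in each list. At *Sik2* the nearest island was the same stretch in both lists, with 785 reads over 5.40 kb in A2a and 372 reads over 5.20 kb in D1. Of all genes, 89.9% lay as near to an A2a island as *Dusp1* or nearer.

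**Figure D4:**
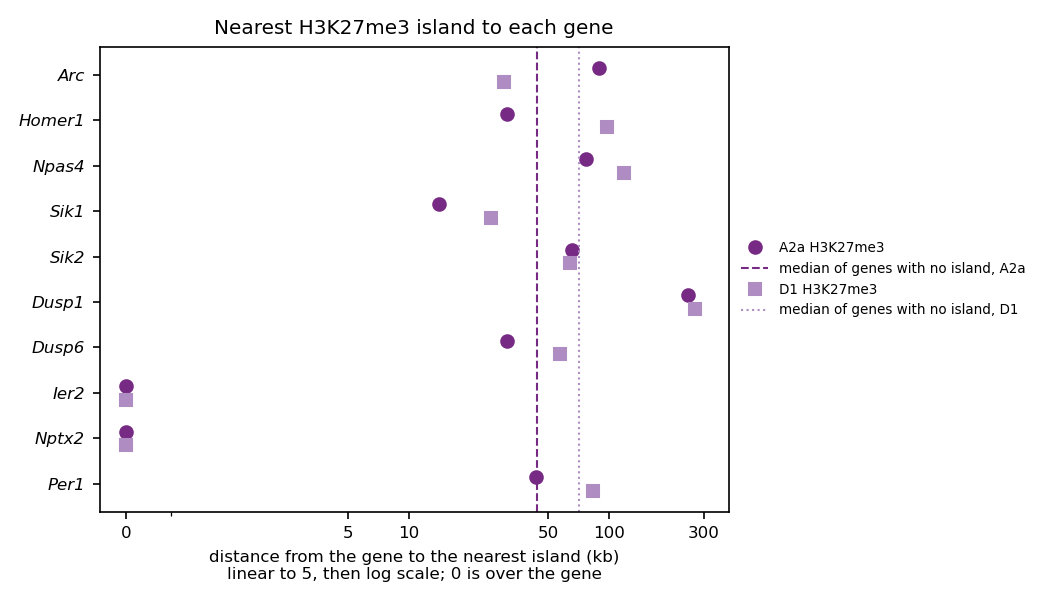
Distance in kb from each gene body to the nearest H3K27me3 island in the A2a list (circles) and the D1 list (squares), on an axis that is linear to 5 kb and logarithmic beyond. *Ier2* and *Nptx2* lie at 0 in both lists, *Dusp1* lies farthest at 250 and 272 kb, and the vertical lines give the medians of the protein-coding genes with no island in the gene body.

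A list of 43 further activity-induced genes was read in the same way. All 43 had an H3K4me3 peak at a start in both lists, with median percentiles of 61.4 in A2a and 62.5 in D1. An island lay at a start of 12 of them in A2a (24.2% of all protein-coding genes) and of 8 in D1 (17.4%). Of the synaptic genes, *Homer2*, *Nptx1*, *Nrn1* and *Pcsk1* had an island in both lists and *Homer3* in A2a alone. The island at *Nrn1*, which encodes the membrane-anchored growth factor neuritin, was 21.0 kb long in A2a and 18.2 kb long in D1. Of the signalling genes, the phosphatase gene *Dusp4* had an island in both lists, of 7.40 kb and 6.20 kb, and the kinase gene *Sgk1* a short one of 1.60 kb in A2a alone. Of the transcriptional regulators, *Klf2*, *Klf4* and *Atf3* had islands in both lists and *Maff* and *Zfp36* in A2a alone. The longest of these, at *Atf3*, were 24.2 kb in A2a and 16.8 kb in D1.

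The 10 genes and these 43 were also pooled to compare H3K4me3 with and without an island at a start. The median percentile of the strongest peak was 47.5 at the 14 genes with an A2a island and 63.5 at the 39 without, with ranges of 25.8 to 89.8 and 43.5 to 97.3 that overlapped. In D1 it was 38.6 at the 10 genes with an island and 62.8 at the 43 without. The same order held over all protein-coding genes with a peak, at 46.3 with and 76.1 without an island in A2a and at 38.6 and 73.7 in D1. Of the 43 genes, *Sik3* (21.4 points) and *Per2* (20.9) had the widest gaps of percentile towards A2a, and *Dusp5* (25.1) and *Rgs4* (23.4) the widest towards D1. The percentile was higher in A2a at 28 of the 43, close to the 65.7% of genes in general. In the neighbouring families, *Nr4a2* had an island of 42.0 kb in A2a and 43.2 kb in D1, and *Nr4a3* (5.40 kb) and *Egr2* (11.0 kb) had islands in A2a alone. Of the 7 Fos and Jun genes, 0 had an island in either list, against 24.2% of protein-coding genes in A2a and 17.4% in D1. These families are small, and a difference from that share was not tested.

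The cell type of the lists was read from marker genes. All 5 markers of A2a neurons (among them *Drd2* and *Penk*) had a D1 island, with a median percentile of 99.1 by reads, and 3 had an A2a island, with a median of 46.8. All 5 markers of D1 neurons (among them *Drd1* and *Pdyn*) had an A2a island, with a median of 99.6, and 4 had a D1 island, with a median of 47.9. The H3K27me3 list taken as D1, whose samples carry conflicting labels, thus had its strong islands at the A2a markers, which goes with the title and cell type of its samples. The 5 markers of striatal interneurons had no H3K4me3 peak and had an island in both lists. H3K4me3 peaks lay at 4 of 4 oligodendrocyte, 4 of 5 astrocyte and 4 of 5 microglial markers in the A2a list and at 2, 1 and 1 in the D1 list, and *Gfap* and *Aif1* had none in either. The A2a peaks at these genes had median percentiles of 24.9, 26.4 and 9.76. Markers of cortical excitatory neurons had a peak at 2 of 5 genes in A2a and at 4 of 5 in D1, with median percentiles of 62.7 and 23.4. *Xist* had an H3K4me3 peak in A2a and none in D1, and *Kdm5d*, *Eif2s3y*, *Uty* and *Ddx3y* had peaks in D1 and none in A2a. Sex and cell type can therefore not be told apart in the H3K4me3 lists, and the part of glial or cortical chromatin in the differences between the lists was not tested. A lower value in either list can mean fewer nuclei with the mark or less of it in each nucleus, which cannot be told apart.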

How the data were processed

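CUT&RUN libraries of A2a and D1 striatal nuclei were analysed from 4 lists, each made by the authors from 2 pooled replicates. Per the submitters' processing notes and the study's methods, alignment to mm10 used Bowtie2 (version 2.1.0), reads under a mapping quality of 20 were dropped with SAMtools (version 0.1.19), Picard removed duplicates, and inserts from 150 to 500 bp were used. The authors' MACS2 calls for H3K4me3 (q-value threshold 0.01) give each peak a fold enrichment, deposited as a ratio, and a −log10 q-value. Their SICER calls for H3K27me3 (200 bp windows, 600 bp gaps, false discovery rate 0.01) give each island a deposited count of reads, not normalized. The study gives sequencing depth as a range over its samples, and the lists hold no library totals. Values were therefore ranked within each list, and A2a and D1 were set side by side without a test.

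Transcript starts and gene bodies came from GENCODE vM21 on GRCm38, with an overlap of at least 1 bp, and promoters from RefSeq. The 10 genes, the 43 further genes, the markers and the motifs were chosen with earlier results of these data known. A marker gene of the list is not reported here. The text names all 10 genes, further genes with an island at a start, without a peak (none were found) or with the 2 widest gaps in each direction, family genes with an island, and neighbours whose start a peak or island covers. The 12 results were recomputed under 70 alternatives (start, window, overlap, threshold, list length, ranking). The counting was tested on simulated data. Tools were Python 3.11.15 with numpy 2.4.6, scipy 1.17.1, and matplotlib 3.10.9 for the plots.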

Additional observations from a re-analysis of the deposited data

How the results depend on the processing

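Of 64 alternatives on counts of genes with a peak or island, 62 stayed within 1.5 times the value reported. With as many of the strongest A2a H3K27me3 islands as the D1 list holds, the genes with an A2a island, at a start and in the gene body, fell from 2 to 1. With the annotated 5′ end alone, 9 of the 10 genes had an H3K4me3 peak in each list. The median percentile of the strongest H3K4me3 peak, 63.1 in A2a and 59.5 in D1, was 28.6 and 26.6 when peaks were ranked by fold enrichment, and 35.4 and 33.1 when ranked among the strongest peak of each protein-coding gene, so that the rank depends on the scale. These values moved because the scale or the set of peaks changed.

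No paired analysis was possible because each list pools its replicates, and for the same reason leaving out a replicate could not be run. The total of each library is not held in the lists, and the A2a lists are the longer ones, so a missing D1 island was not detectable at this depth and is not shown to be absent.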
